A study of Mus musculus with 34 samples.

Results

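The genotype by stage interaction asks of each gene whether R442Q CHK1 moved its mRNA differently in zygotes and in late 2-cell embryos, and which genes and functions moved in opposite directions. It was taken over the 20 zygote and late 2-cell libraries of the study's 34, as the R442Q minus WT difference in late 2-cell embryos minus the same difference in zygotes. All embryos had been injected as zygotes with mRNA for CHK1, either wild-type (WT) or carrying R442Q, and grown in KSOM medium without the CHK1 inhibitor that the blastocysts received. There were 5 WT zygotes, 6 R442Q zygotes, 4 WT late 2-cell embryos and 5 R442Q late 2-cell embryos, each library being 1 embryo freed of its zona pellucida and amplified with SMART-seq2. The labels give no strain, mRNA dose or time of collection, and name no change to the embryos' own Chek1. Where nothing says that embryos of a group came from separate females or days, the tests measure only the spread between these embryos.

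The kinase CHK1 acts in the checkpoint that senses damaged or unreplicated DNA. It phosphorylates CDC25 phosphatases and thereby delays the activation of CDK1 and the entry into mitosis. A zygote lives largely on mRNA stored in the oocyte. By the late 2-cell stage much of that store has been degraded, and the embryo's own genome has been switched on in a major wave that includes the Zscan4 family and other transient 2-cell genes.

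Total counts per library were 7183632 to 11296522 in zygotes and 5727956 to 8916343 in late 2-cell embryos. Levels are in CPM, each gene's count relative to the TMM-scaled library total, and an effect is the R442Q minus WT log2 fold change from 1 edgeR model of the 4 groups, given with its standard error. The 8 oocyte and zygote markers summed to 10000 to 13200 CPM in zygotes and 1230 to 4050 CPM in late 2-cell embryos. The 8 late 2-cell markers summed to 19.3 to 46.3 CPM in WT and 56.4 to 223 CPM in R442Q zygotes. In late 2-cell embryos they summed to 279 to 2010 CPM in WT and 1110 to 3280 CPM in R442Q. Of 15 cumulus cell markers, 7 were under 1 CPM in every group. All 15 summed to 37.8 to 53.6 CPM in zygotes and 3.93 to 41.4 CPM in late 2-cell embryos. Most of the zygote sum was Cyp19a1, with means of 39.4 CPM in WT and 30.1 CPM in R442Q zygotes. Counts are relative to all mRNA of an embryo, so less mRNA of a gene and more mRNA of other genes cannot be told apart. The stages came as separate deposited tables, and a difference between tables cannot be separated from one between stages.

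Chek1, the injected gene, was high in all zygotes and did not separate the genotypes. It stood at 4590 to 8610 CPM in WT zygotes and at 6130 to 7970 CPM in R442Q zygotes, a difference of 0.27 on the log2 scale (exact two-sided permutation test, p = 0.143, adjusted over both stages 0.286). At the late 2-cell stage it stood at 388 to 659 CPM in WT and 266 to 651 CPM in R442Q, a difference of -0.10 (exact permutation p = 0.817). Its interaction was -0.28 ± 0.35 (SE, adjusted p = 0.674). Counts of Chek1 cannot tell the injected from the embryos' own mRNA, and they do not show which allele was injected.

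Among 16199 genes tested, 1639 (10.1%) had an interaction past the threshold (edgeR quasi-likelihood test, adjusted p of 0.05). The effect was higher in late 2-cell embryos for 497 genes (3.07%) and lower for 1142 (7.05%). Over the fits that left out 1 library, the higher count was 368 (without WT zygote replicate 3) to 1029 (without R442Q late 2-cell replicate 3), and the lower count was 670 (without WT zygote replicate 2) to 1282 (without R442Q late 2-cell replicate 3). By the signs of the 2 fitted effects, 924 of the 1639 genes were above 0 in zygotes and below 0 in late 2-cell embryos, 424 were below and then above 0, 110 were above 0 at both stages and 181 below 0 at both. Opposite signs thus made up 82.2% of the called genes, and 50.1% of all genes tested. The interaction is the difference of the 2 effects, so genes with opposite signs were favoured by the call itself. Among the 8123 genes with at least 5 CPM in the higher genotype of each stage, 5.37% were called higher in late 2-cell embryos and 10.6% lower.

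The split between higher and lower calls moved with the scaling. Higher calls were 30.3% of all calls with TMM, 37.0% (596 of 1609) with TMM factors computed within each stage, 43.5% (707 of 1624) with median-ratio size factors, and 50.7% (964 of 1901) on log2(FPKM + 1). The median interaction of all genes was -0.16 with TMM and -0.01 with median-ratio size factors. The medians given below for gene lists are not corrected for this shift. The number of calls ranged from 1089 (without WT zygote replicate 2) to 2311 (without R442Q late 2-cell replicate 3) over the fits that left out 1 library.

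**Figure D1:**
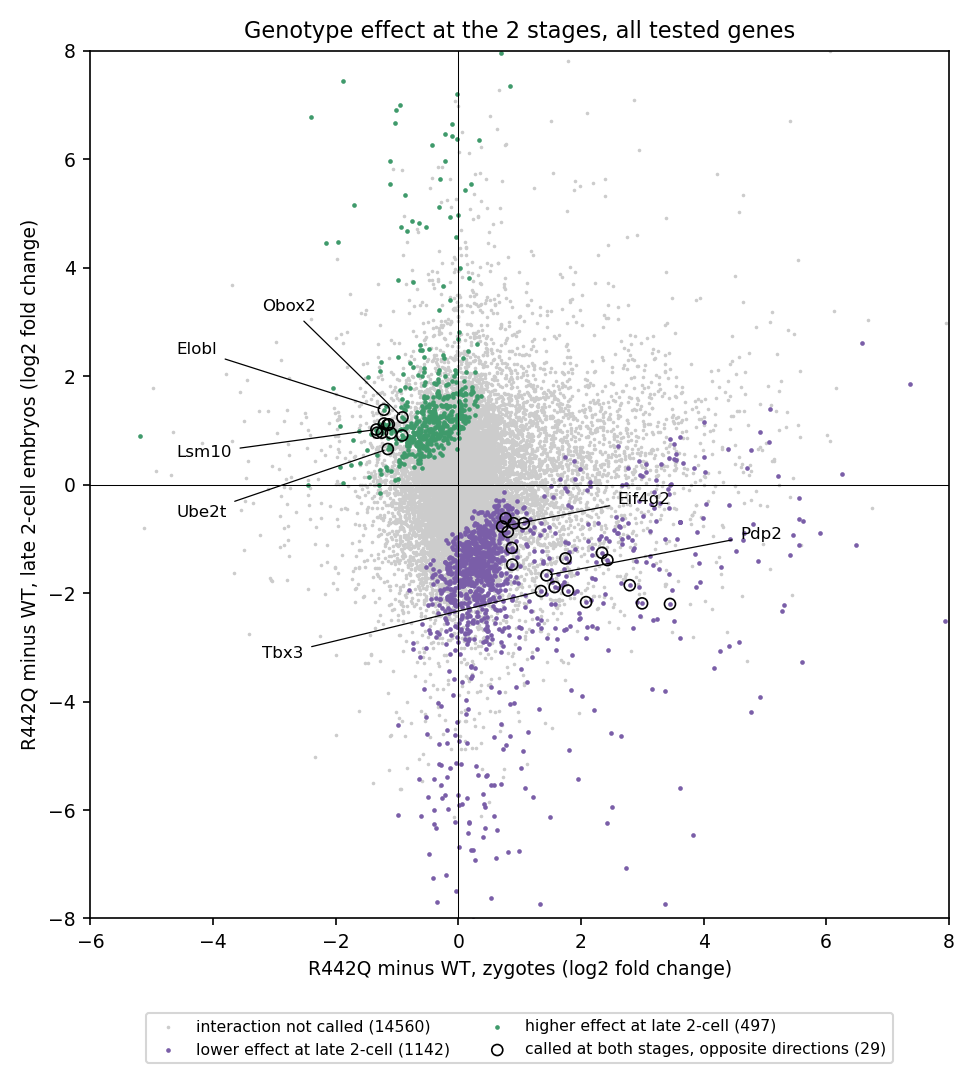
Genotype effect (R442Q minus WT, log2 fold change) in zygotes on the x axis and in late 2-cell embryos on the y axis, 1 point per tested gene, with 9 genes outside the plotted range. Genes with a called interaction (green, 497 higher; purple, 1142 lower) lie mostly in the upper left and lower right, and the 29 ringed genes passed the test at both stages in opposite directions.

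An interaction call does not require an effect past the threshold at both stages, and most called genes passed the test at the late 2-cell stage alone. Not passing in zygotes does not show that a gene had no effect there. Of the 1639 genes, 1227 passed the test only in late 2-cell embryos, 123 only in zygotes and 259 at neither stage. In the same model 270 genes (1.67%) passed in zygotes, 197 higher and 73 lower in R442Q, and 2507 (15.5%) passed in late 2-cell embryos, 944 higher and 1563 lower. These splits turned with the scaling or unit, to 1369 higher and 1284 lower in late 2-cell embryos with median-ratio size factors and 1954 and 1608 with DESeq2, and to 60 higher and 142 lower in zygotes on log2(FPKM + 1). Without R442Q late 2-cell replicate 3, 1539 genes were higher and 1664 lower in late 2-cell embryos. The zygote count was 135, 161, 163 and 151 without WT zygote replicates 1, 2, 3 and 5 in turn, and 176 and 148 without R442Q zygote replicates 1 and 2. With each stage fitted alone the balance turned, to 1600 genes in zygotes (761 higher, 839 lower) and 519 in late 2-cell embryos. These counts were taken over the 10853 genes tested at each stage, against 16199 in the model of 4 groups, and the cause of the turn was not tested.

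Genes with an effect past the threshold at both stages numbered 51, of which 22 moved the same way (10 up, 12 down) and 29 moved in opposite ways with a called interaction as well (0.179% of the genes tested). Among the 29, 18 rose in R442Q zygotes and fell in R442Q late 2-cell embryos, and 11 fell and then rose. This split was 10 and 11 with median-ratio size factors, 41 and 44 with DESeq2, 8 and 33 on log2(FPKM + 1), 7 and 28 on log2(FPKM + 0.1), and 17 and 27 without R442Q late 2-cell replicate 3. The 29 are called crossover genes here. A narrower group of 8 had at least 5 CPM in the higher genotype of each stage and no overlap between the genotypes at either. Of all tested genes, 135 (0.833%) had no overlap at both stages, in either pattern of direction. Of the 7 described here, Eif4g2, Tbx3 and Pdp2 rose and then fell, while Ube2t, Lsm10, Elobl and Obox2 fell and then rose.

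The number of crossover genes changed with single embryos. Without WT zygote replicates 1, 2, 3 and 5 in turn it was 11, 9, 10 and 14. Without R442Q zygote replicates 1, 2, 4 and 5 in turn it was 13, 10, 17 and 14. It was 19 without WT late 2-cell replicate 2 and 44 without R442Q late 2-cell replicate 3. Manf, Pdp2 and Elobl stayed crossover genes in all 20 fits that left out 1 library. Of the 29, 12 stayed in at least 9 of the 12 other settings tried, 9 stayed with each library's trend on transcript length and GC content removed, and 7 stayed with each stage fitted alone. Tbx3, Pdp2 and Elobl were among those 7. With the trend removed, Eif4g2, Tbx3 and Pdp2 stayed crossover genes, while Ube2t, Lsm10, Elobl and Obox2 did not, as their late 2-cell effects no longer passed (adjusted p = 0.15, 0.308, 0.773 and 0.946).

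Eif4g2 (GRCm38 chromosome 7, 111067750 to 111083030, minus strand) encodes a translation factor related to eIF4G that lacks its binding site for the cap-binding protein eIF4E. In zygotes it was 292, 278, 300, 369 and 343 CPM in WT, and 453, 539 and 577 CPM (lowest, median and highest) in R442Q. At the late 2-cell stage it was 1120, 1230, 1450 and 1180 CPM in WT, and 594, 776, 981, 499 and 792 CPM in R442Q. The genotypes did not overlap at either stage, and the effect changed from 0.72 ± 0.17 (SE, adjusted p = 0.0286) to -0.77 ± 0.19 (adjusted p = 0.0064), an interaction of -1.49 ± 0.25 (adjusted p = 0.000662). With late 2-cell embryos fitted alone, the second effect was -0.72 with an adjusted p of 0.149.

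Tbx3 (chromosome 5, 119670669 to 119684724, plus strand) encodes a T-box transcription factor of early development. Its zygote level was low, at 9.80, 11.5, 9.15, 7.44 and 7.46 CPM in WT, and at 11.5, 20 and 34.6 CPM (lowest, median and highest) in R442Q. Late 2-cell embryos had 103, 101, 158 and 142 CPM in WT, and 19.5, 35.3, 31.7, 19.7 and 55.1 CPM in R442Q. R442Q zygotes had 2.55 times the mean level of WT zygotes, while R442Q late 2-cell embryos had 0.256 of the WT mean. The 2 effects were 1.35 ± 0.31 (adjusted p = 0.0245) and -1.96 ± 0.33 (adjusted p = 0.000371), with an interaction of -3.31 ± 0.46 (adjusted p = 0.000113). Annotated exons of Tbx3os1 overlap it on the other strand, and whether counting used strand is not given in the sources used here.

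Pdp2 (chromosome 8, 104591451 to 104599026, plus strand) encodes a phosphatase that activates the pyruvate dehydrogenase complex, the step by which mitochondria turn pyruvate into acetyl-CoA. It was 2.99, 8.78, 6.64, 5.82 and 3.39 CPM in WT zygotes, and 9.09, 14.7 and 20.9 CPM (lowest, median and highest) in R442Q zygotes. It was 295, 534, 341 and 369 CPM in WT late 2-cell embryos and 107, 112, 138, 114 and 131 CPM in R442Q ones. The R442Q late 2-cell embryos lay close together, all far below the lowest WT embryo. The effects were 1.44 ± 0.28 (adjusted p = 0.00772) and -1.67 ± 0.29 (adjusted p = 0.000374), and the interaction was -3.11 ± 0.40 (adjusted p = 4.91e-05).

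Ube2t (chromosome 1, 134962565 to 134974162, plus strand) encodes the ubiquitin-conjugating enzyme that works with the Fanconi anaemia ligase in the repair of DNA cross-links. It was 226, 276, 249, 231 and 239 CPM in WT zygotes, and 91.2, 109 and 130 CPM (lowest, median and highest) in R442Q zygotes. In late 2-cell embryos the order was the other way, with 79.6, 82.2, 79.7 and 63.8 CPM in WT and 122, 112, 93.8, 190 and 83.7 CPM in R442Q. The zygote effect was -1.15 ± 0.19 (adjusted p = 0.003) and the late 2-cell effect 0.66 ± 0.22 (adjusted p = 0.0436), with an interaction of 1.80 ± 0.29 (adjusted p = 0.00049). The lowest R442Q late 2-cell embryo, at 83.7 CPM, was just above the highest WT one, at 82.2 CPM.

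Lsm10 (chromosome 4, 126096623 to 126098584, plus strand) encodes a subunit of the U7 small nuclear ribonucleoprotein, which cuts the 3′ ends of replication-dependent histone pre-mRNA. It was 109, 95.1, 79.3, 60.0 and 51.1 CPM in WT zygotes, and 17.5, 30.0 and 48.2 CPM (lowest, median and highest) in R442Q zygotes. It was 49.5, 44.4, 43.9 and 43.4 CPM in WT late 2-cell embryos and 86.5, 64.2, 109, 141 and 57.5 CPM in R442Q ones. R442Q zygotes had 0.396 of the WT mean and R442Q late 2-cell embryos 2.02 times the WT mean. The interaction was 2.35 ± 0.43 (adjusted p = 0.00131).

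Elobl (chromosome 11, 88964658 to 88966931, minus strand) is an elongin B-like gene, and 12.1% of its 50-base stretches occur in other annotated genes, most in Coil. It was 945, 1270, 709, 970 and 920 CPM in WT zygotes, and 281, 342 and 677 CPM (lowest, median and highest) in R442Q zygotes. In late 2-cell embryos it was 26.2, 43.4, 40.5 and 49.8 CPM in WT and 94.8, 85.4, 63.8, 119 and 158 CPM in R442Q. The interaction was 2.59 ± 0.39 (adjusted p = 0.00027). With the length and GC trend removed it was 1.44 (adjusted p = 0.0201), and the late 2-cell effect of Elobl was 0.18 (adjusted p = 0.773).

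Obox2 (chromosome 7, 15388721 to 15398545, plus strand) belongs to the oocyte-specific homeobox family, and 65.1% of its 50-base stretches occur in other genes, most in Obox1, so its counts are uncertain. It was 922 to 1050 CPM in WT zygotes, and in R442Q zygotes its median was 474 CPM and its highest value 796 CPM. It was 23.6, 29.0, 21.8 and 26.6 CPM in WT late 2-cell embryos, and 84.3, 33.7, 49.4, 95.4 and 35.6 CPM in R442Q ones. The interaction was 2.15 ± 0.36 (adjusted p = 0.000593), and its zygote effect of -0.91 had an adjusted p of 0.0454. With the length and GC trend removed the interaction of Obox2 was 0.98 and did not pass (adjusted p = 0.0593), and its late 2-cell effect was 0.04 (adjusted p = 0.946). It stayed a crossover gene in 9 of the 20 fits without 1 library.

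**Figure D2:**
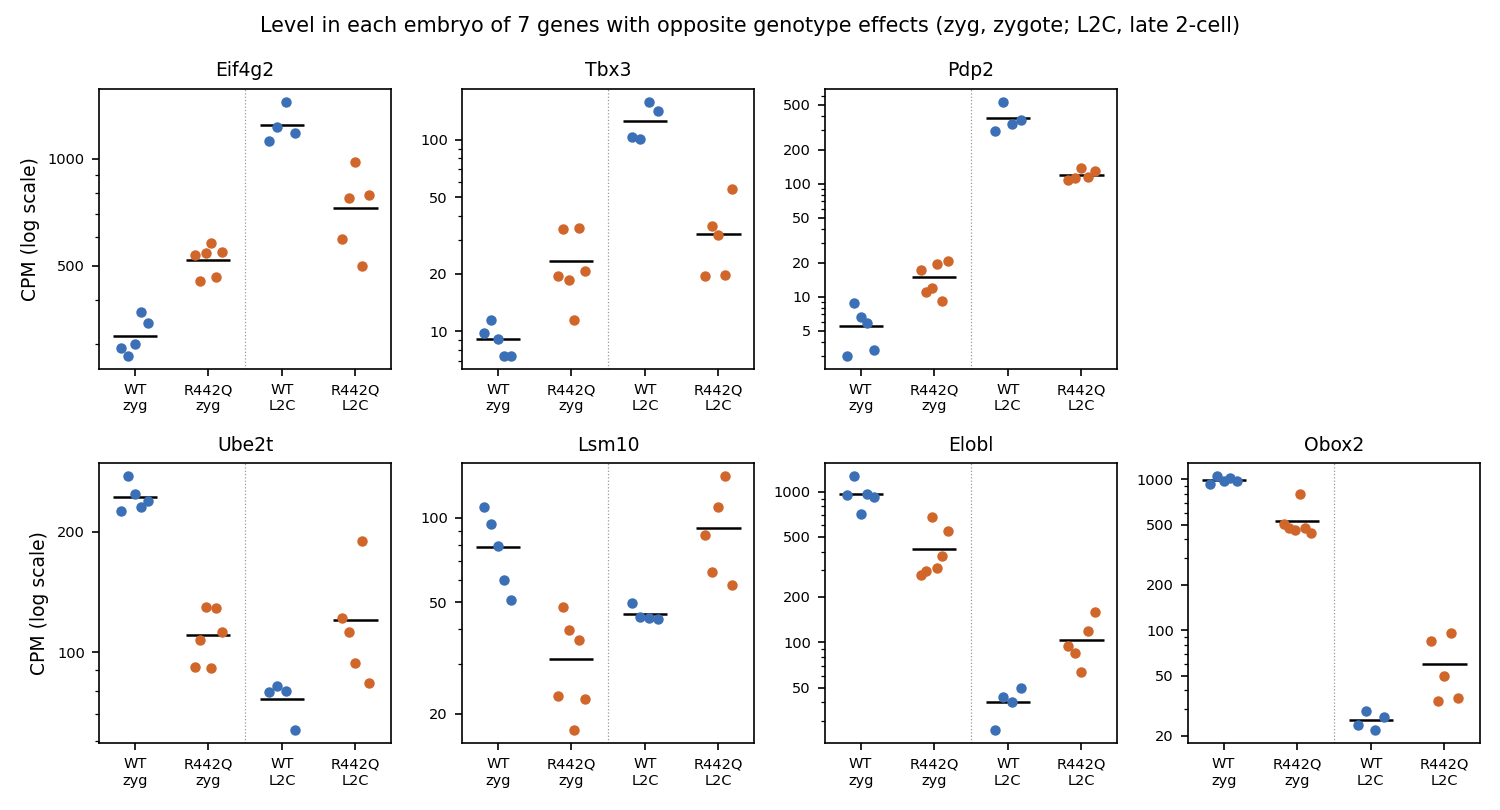
Level in CPM on a log axis of 7 crossover genes whose genotypes did not overlap at either stage, 1 point per embryo (blue, WT; orange, R442Q), with the group mean as a bar. Eif4g2, Tbx3 and Pdp2 in the top row are higher in R442Q zygotes and lower in R442Q late 2-cell embryos, and Ube2t, Lsm10, Elobl and Obox2 in the bottom row are the reverse.

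The sequence before the start of 4 of these genes is shown because they are the genes of each direction whose start RefSeq lists and which do not share most of their sequence with a copy. Each line gives the 250 bases before the RefSeq start on GRCm38.p6, 5′ to 3′ on the gene's strand, with each CCAAT box in capitals (CCAAT, or ATTGG where it lies on the other strand). The window is chr8:104591222-104591471 for Pdp2, chr1:134962315-134962564 for Ube2t, chr4:126096403-126096652 for Lsm10 and, on the minus strand, chr11:88966932-88967181 for Elobl. The RefSeq starts of Pdp2 and Lsm10 lie inside the GENCODE positions given above, so these windows include some bases of the annotated gene.
Pdp2: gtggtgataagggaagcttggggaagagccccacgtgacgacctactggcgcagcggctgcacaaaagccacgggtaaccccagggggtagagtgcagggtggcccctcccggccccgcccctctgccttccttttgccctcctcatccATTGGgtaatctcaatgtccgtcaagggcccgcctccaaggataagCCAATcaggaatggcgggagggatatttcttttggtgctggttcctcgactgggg
Ube2t: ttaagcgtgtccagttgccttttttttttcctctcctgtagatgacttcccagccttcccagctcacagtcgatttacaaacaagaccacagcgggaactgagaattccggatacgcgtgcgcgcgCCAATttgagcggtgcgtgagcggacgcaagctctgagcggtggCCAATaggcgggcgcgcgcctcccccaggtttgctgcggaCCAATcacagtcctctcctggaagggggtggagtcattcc
Lsm10: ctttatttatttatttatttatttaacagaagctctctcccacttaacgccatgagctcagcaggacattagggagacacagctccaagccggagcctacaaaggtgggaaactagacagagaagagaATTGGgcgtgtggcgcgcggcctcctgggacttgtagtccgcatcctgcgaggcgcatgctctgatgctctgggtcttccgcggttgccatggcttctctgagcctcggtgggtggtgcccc
Elobl: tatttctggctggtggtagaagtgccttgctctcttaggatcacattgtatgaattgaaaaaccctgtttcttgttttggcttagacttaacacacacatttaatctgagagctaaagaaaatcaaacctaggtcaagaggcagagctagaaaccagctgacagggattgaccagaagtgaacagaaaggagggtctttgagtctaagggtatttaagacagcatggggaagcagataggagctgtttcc
The box occurred 2 times before Pdp2, 3 times before Ube2t, 1 time before Lsm10 and not before Elobl, and 34.5% of 27025 RefSeq promoters of this length hold at least 1 on either strand. CCGGAAG, a site of ETS factors that 7.05% of promoters hold, occurred in none of these 4 windows on either strand. The box stood before a gene that rose and then fell and before genes that fell and then rose.

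The other 21 crossover genes had overlapping genotypes at a stage or were under 5 CPM in 1 stage. Manf, which encodes a protein of the endoplasmic reticulum that is induced by unfolded proteins, had means of 67.8 CPM in WT and 28.6 CPM in R442Q zygotes, and of 181.8 and 353.3 CPM in late 2-cell embryos (interaction 2.20 ± 0.31, adjusted p = 0.000113). Gmps, an enzyme of guanine nucleotide synthesis, went from 124.0 against 53.5 CPM in zygotes to 68.9 against 150.4 CPM (interaction 2.34). Ssb, the La protein that binds the ends of new RNA polymerase III transcripts, went from 809.1 against 429.5 CPM to 91.5 against 171.4 CPM (interaction 1.82). Haus3, a subunit of the augmin complex that nucleates spindle microtubules, had an interaction of 2.28, and Tmem59, Tmem50a and Serpini1 had interactions of 2.26, 2.05 and 2.24. These genes all fell in R442Q zygotes and rose in R442Q late 2-cell embryos. With the length and GC trend removed, only Manf among them stayed a crossover gene. The interactions of Ssb and Tmem50a then did not pass (adjusted p = 0.108 and 0.0538).

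Among the other genes that rose and then fell, Gga3, an adaptor of Golgi transport, had means of 236.8 CPM in WT and 496.7 CPM in R442Q zygotes, and of 264.6 and 161.1 CPM in late 2-cell embryos (interaction -1.78). Sephs2, an enzyme of selenocysteine synthesis, had an interaction of -2.04, and Mgat2, an enzyme of N-glycan synthesis, one of -3.46. Slc34a2, a phosphate carrier, went from 1.97 against 10.1 CPM to 576.6 against 241.0 CPM (interaction -3.60). Bend3, Btbd18, D1Pas1 and Olfr639 had interactions of -3.11, -3.82, -4.25 and -1.68. The last 6 were predicted genes (Gm15455, Gm26905, Gm44087, Gm47739, Gm49284 and Gm49015), of which Gm26905, Gm47739 and Gm49015 had 85.5%, 96.3% and 100% of their sequence repeated in other genes. Mgat2, Sephs2, Olfr639, Gm44087 and Gm49284 stayed crossover genes in only 1, 3, 2, 2 and 2 of the 20 fits without 1 library. The others of this paragraph stayed in 4 (Gm47739) to 16 (Gm15455). With the length and GC trend removed, the late 2-cell effect of Gga3 was 0.04 (adjusted p = 0.939).

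Functions were described with 52 gene lists, of which 50 had at least 6 tested members. Across all tested genes the median effect was 0.11 in zygotes and 0.03 in late 2-cell embryos, 21.5% of genes were below 0 in zygotes and above 0 in late 2-cell embryos, and 28.6% were the reverse. The 6 lists with the lowest and the 6 with the highest median interaction are described, and 7 more were added after their values had been seen, because at least 9 members were called in 1 direction. No list held more than 1 of the 29 crossover genes. The other 31 lists with at least 6 tested members had median interactions of -0.73 to 0.59. Usp17-like deubiquitinases and Y-linked genes, with only 5 and 3 tested members, had median interactions of -2.46 and -1.94.

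**Figure D3:**
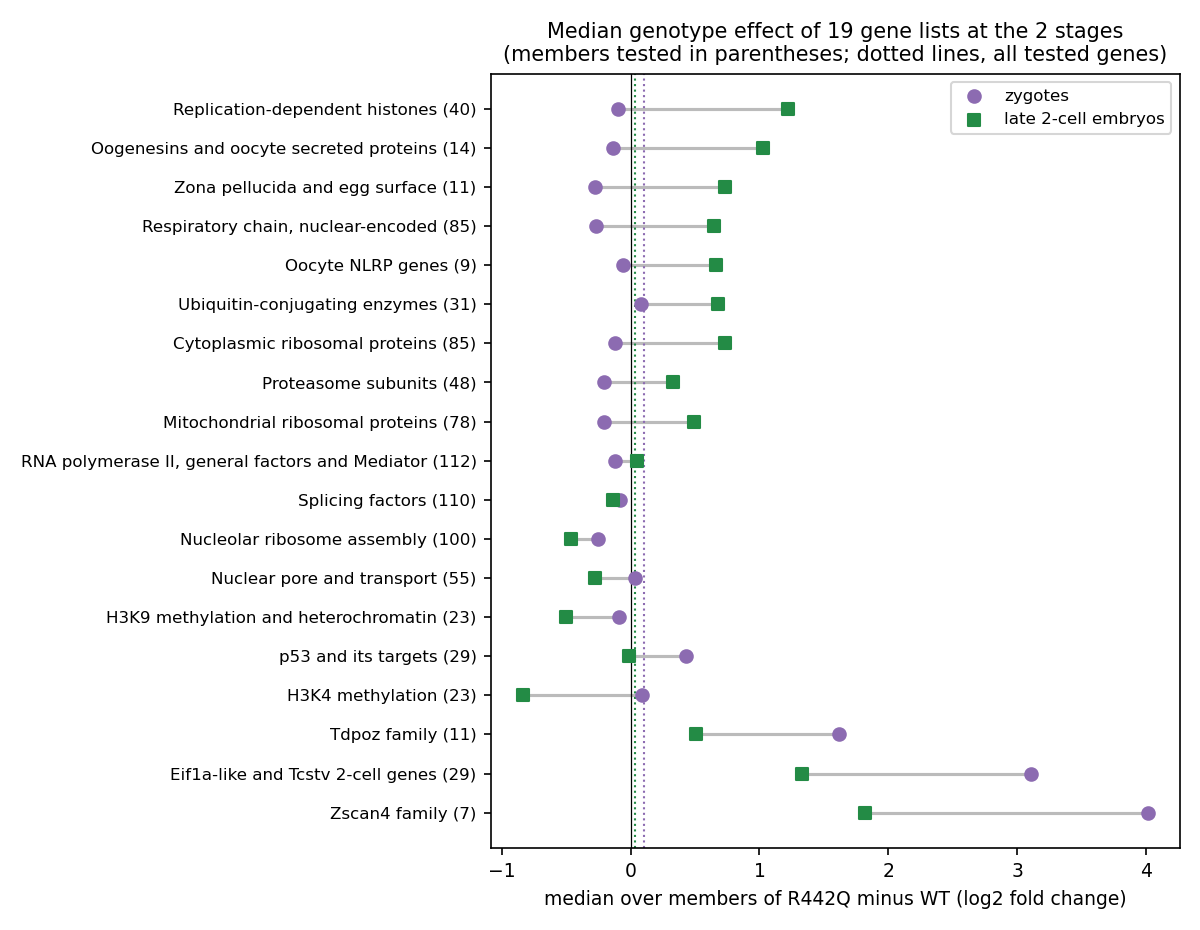
Median over tested members of the genotype effect (R442Q minus WT, log2 fold change) in zygotes (circles) and late 2-cell embryos (squares) for 19 gene lists, with the median of all tested genes as dotted lines. Respiratory chain, ribosomal protein, proteasome and the 3 oocyte lists shown lie left of 0 in zygotes and right of 0 in late 2-cell embryos, and the H3K4 methylation and nuclear pore lists lie left of 0 only in late 2-cell embryos.

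The nuclear-encoded respiratory chain, whose subunits make up mitochondrial complexes I to V, was the list with the most called members in the upward direction. Its 85 tested members had a median effect of -0.27 in zygotes and 0.65 in late 2-cell embryos, and a median interaction of 0.94. An interaction was called higher for 17 members (20%, against 3.07% of all genes) and lower for 0, and 55 members (64.7%) were below 0 in zygotes and above 0 in late 2-cell embryos. No member passed the test in zygotes, so none was a crossover gene, while 23 of the 85 rose in late 2-cell embryos, against 5.83% of all genes. Of the 17, 16 had effects of opposite sign at the 2 stages.

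Ndufc2, Cox7b, Uqcrc2 and Ndufa2 had the smallest p of the list. Ndufc2, a subunit of complex I, was 15.4, 16.1, 12.9, 9.07 and 14.1 CPM in WT zygotes and 2.46, 5.73 and 9.21 CPM (lowest, median and highest) in R442Q zygotes. It was 9.26, 14.7, 9.27 and 10.1 CPM in WT late 2-cell embryos and 27.6, 14.8, 17.5, 45.3 and 42.1 CPM in R442Q ones. Every R442Q late 2-cell embryo was above every WT one, and only 1 R442Q zygote was above the lowest WT zygote (interaction 2.62 ± 0.56, adjusted p = 0.00422). Cox7b, of complex IV, had means of 16.9 and 12.7 CPM in WT and R442Q zygotes and of 65.2 and 188.5 CPM in late 2-cell embryos (interaction 1.94 ± 0.45, adjusted p = 0.00753). Uqcrc2, a core subunit of complex III, had no overlap in zygotes (195 to 299 CPM in WT, 107 to 164 CPM in R442Q), but overlapped in late 2-cell embryos (32.7 to 38.7 and 34.0 to 98.2 CPM; interaction 1.55 ± 0.34, adjusted p = 0.0054). Ndufa2, also of complex I, had 0.588 of the WT mean in zygotes and 2.08 times the WT mean in late 2-cell embryos (interaction 1.82, adjusted p = 0.0106).

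The lists of both ribosomes had medians below 0 in zygotes and above 0 in late 2-cell embryos, but many members were above 0 in zygotes. The 85 tested cytoplasmic ribosomal proteins had a median effect of -0.12 in zygotes and 0.73 in late 2-cell embryos, with 10 called higher (11.8%, against 3.07% of all genes) and 0 lower. Of the 85, 37 were above 0 in zygotes, 47 (55.3%) were below and then above 0, and 22 rose in late 2-cell embryos, against 5.83% of all genes. The 78 tested mitochondrial ribosomal proteins had medians of -0.21 and 0.49, with 11 called higher (14.1%) and 0 lower, and 28 were above 0 in zygotes and 42 (53.8%) below and then above 0. Rps29, of the small cytoplasmic subunit, had means of 28.8 and 13.4 CPM in WT and R442Q zygotes, with no overlap, and of 222.9 and 446.7 CPM in late 2-cell embryos, with overlap (interaction 2.10 ± 0.45, adjusted p = 0.00479). Rpl10, of the large subunit, had 0.686 and 1.80 times the WT mean at the 2 stages (interaction 1.40, adjusted p = 0.014). Pseudogene copies share 18.9% of the stretches of Rps29 and 33.5% of those of Rpl10 with other genes, so both are uncertain.

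Mrps22, of the small mitochondrial subunit, separated the genotypes at both stages although its zygote effect did not pass the test (-0.64, adjusted p = 0.107). It was 28.2, 32.7, 26.1, 29.0 and 32.3 CPM in WT zygotes and 13.5, 19.6 and 23.5 CPM (lowest, median and highest) in R442Q zygotes. It was 57.0, 44.0, 46.8 and 46.2 CPM in WT late 2-cell embryos and 102, 102, 75.3, 108 and 116 CPM in R442Q ones (interaction 1.70 ± 0.30, adjusted p = 0.000915). Mrpl16, of the large mitochondrial subunit, was close in zygotes (35.6 and 32.4 CPM) and differed in late 2-cell embryos (34.3 and 77.6 CPM; interaction 1.31, adjusted p = 0.00574).

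Proteasome subunits, which degrade proteins tagged with ubiquitin, had a median effect of -0.21 in zygotes and 0.33 in late 2-cell embryos over 48 tested members, with 9 called higher (18.8%, against 3.07% of all genes) and 1 lower (2.08%, against 7.05%). Of the fits without 1 library, only those without WT zygote replicates 1, 4 or 5 called a subunit lower. Psma1, of the 20S core, went from 139.5 against 97.6 CPM in zygotes to 124.6 against 235.5 CPM in late 2-cell embryos (interaction 1.43 ± 0.28, adjusted p = 0.00244). Psmc6, an ATPase of the 19S cap, was 43.5 to 57.3 CPM in WT late 2-cell embryos and 86.1 to 202 CPM in R442Q ones, with overlap in zygotes (interaction 1.52 ± 0.33, adjusted p = 0.00513). Of the 31 ubiquitin-conjugating enzymes tested, 2 were called higher (6.45%, against 3.07% of all genes) and 1 lower (3.23%, against 7.05%), with medians of 0.08 and 0.68. Without 1 library, 1 to 7 of them were called higher, with 7 without R442Q late 2-cell replicate 3, 4 without replicate 5 of that group, and 1 without WT zygote replicates 1, 3, 4 or 5 or WT late 2-cell replicate 2. Beside Ube2t, Ube2n, which makes lysine 63-linked chains, was higher (98.9 and 103.8 CPM in zygotes, 95.9 and 215.1 CPM in late 2-cell embryos; interaction 1.10, adjusted p = 0.0387), and it lost its call in 9 of 32 alternatives. Ube2g2, an enzyme of endoplasmic reticulum-associated degradation, was lower (38.6 and 33.4 CPM, then 46.2 and 7.09 CPM; interaction -2.49, adjusted p = 0.00136).

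Of the oocyte lists, 3 are described here. The others did not all have this form, with zygote and late 2-cell medians of -0.50 and -0.10 for the subcortical maternal complex (3 of 8 members above 0 in late 2-cell embryos), 0.05 and 0.54 for oocyte growth factors and meiotic regulators, and 0.12 and 0.80 for the Obox family. The 14 oogenesins and oocyte secreted proteins had a median effect of -0.14 in zygotes and 1.03 in late 2-cell embryos, with 6 called higher (42.9%, against 3.07% of all genes), 0 lower and all 14 above 0 in late 2-cell embryos. Oas1e, an oocyte-expressed member of the oligoadenylate synthetase family, was 1130 to 1500 CPM in WT zygotes and 914 to 1150 CPM in R442Q zygotes. It was 24.0, 23.5, 32.4 and 11.0 CPM in WT late 2-cell embryos and 51.4, 47.2, 44.7, 79.3 and 39.6 CPM in R442Q ones (interaction 1.61 ± 0.32, adjusted p = 0.00267). The R442Q late 2-cell embryos were all above the WT ones. The 8 oocyte and zygote markers summed to 10000 to 12700 CPM in R442Q and 10400 to 13200 CPM in WT zygotes, and to 1460 to 4050 CPM in R442Q and 1230 to 2910 CPM in WT late 2-cell embryos. Of the 8, 7 had a higher mean in R442Q than in WT late 2-cell embryos, at 767 and 1810 CPM (WT and R442Q) for Oosp1, itself on this list, 35.7 and 169 CPM for Ooep, 97.2 and 152 CPM for Nlrp5, 315 and 400 CPM for Btg4, 271 and 313 CPM for Bmp15, 2.73 and 8.09 CPM for Mos and 81.5 and 86.5 CPM for Zp3. Gdf9 was lower, at 187 and 125 CPM. The part of the oocyte markers in the result was not tested. Oosp1, Oosp2 and Oosp3, secreted proteins of the oocyte, had interactions of 1.55, 1.57 and 1.47 (adjusted p = 0.0203, 0.0053 and 0.0167). With the length and GC trend removed these were 0.22, 0.02 and -0.18, and none passed (adjusted p = 0.845, 0.988 and 0.852).

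Of 9 tested NLRP genes stored in the oocyte outside the subcortical maternal complex, 4 were called higher (44.4%, against 3.07% of all genes) and 0 lower, with a median effect of -0.06 in zygotes and 0.66 in late 2-cell embryos. Nlrp14 passed the test in zygotes, where it was 1220, 1470, 1640, 1080 and 1380 CPM in WT and 304, 622 and 961 CPM (lowest, median and highest) in R442Q (effect -1.09, adjusted p = 0.0289). In late 2-cell embryos it was 103 to 254 CPM in WT and 199 to 372 CPM in R442Q, which did not pass (0.66, adjusted p = 0.132; interaction 1.75 ± 0.39, adjusted p = 0.00615). Nlrp4b, Nlrp9b and Nlrp9c had interactions of 1.64, 1.78 and 0.84 (adjusted p = 0.0413, 0.0493 and 0.0444), and lost their calls in 11, 22 and 9 of 32 alternatives. Without 1 library, from 1 to 4 of the 9 genes were called. Only 1 was called without WT zygote replicates 1, 3, 4 or 5 or without WT late 2-cell replicates 2 or 4, and 2 were called without WT late 2-cell replicate 1 or R442Q late 2-cell replicate 1.

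Among 11 zona pellucida and egg surface genes the medians were -0.28 and 0.73, with 2 called higher (18.2%, against 3.07% of all genes). Zp1, a protein of the egg coat, had means of 67.8 and 42.5 CPM in zygotes and of 31.4 and 51.1 CPM in late 2-cell embryos (interaction 1.38, adjusted p = 0.0467), and Zp2, which binds sperm, had an interaction of 1.01 (adjusted p = 0.0486), and they lost their calls in 12 and 11 of 32 alternatives. Without 1 library, from 0 to 5 genes of this list were called. The count was 0 without WT zygote replicates 1, 2, 4 or 5 or WT late 2-cell replicate 4, and 1 without WT zygote replicate 3, R442Q zygote replicates 1 or 2 or R442Q late 2-cell replicate 4. It was 4 without R442Q late 2-cell replicate 5 and 5 without R442Q late 2-cell replicates 2 or 3. Replication-dependent histones, which package newly copied DNA, had the highest median interaction, 1.25 (-0.10 in zygotes, 1.22 in late 2-cell embryos), but only 9 of the 40 tested reached 5 CPM at both stages. Hist1h3f (50.7 and 26.1 CPM in zygotes, 7.65 and 25.6 CPM in late 2-cell embryos; interaction 2.70, adjusted p = 0.00338) and Hist1h2ba, a variant of the testis and egg (interaction 2.90, adjusted p = 0.0189), were called higher (5.00% of the list, against 3.07% of all genes). The number called higher was 5 without R442Q late 2-cell replicate 2 and 4 without replicates 3 or 5 of that group. Hist1h2ba was low in late 2-cell embryos, with overlap, at 0.14 to 1.5 CPM in WT and 1.4 to 3.94 CPM in R442Q. It lost its call in 4 of 31 alternatives. Other genes hold 49.3% of the stretches of Hist1h3f and 38.2% of those of Hist1h2ba, and most mRNAs of this class carry no poly(A) tail, on which SMART-seq2 priming relies. Hist1h2ac was called lower, at 0 CPM in all 5 R442Q late 2-cell embryos, where a count of 0 allows up to 0.322 to 0.531 CPM, and at 3.37, 0, 0.713 and 0 CPM in the WT ones. That call was lost without WT late 2-cell replicate 1 (adjusted p = 0.109) or WT zygote replicate 2, and on log2(FPKM + 1) the interaction of Hist1h2ac was -0.20.

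**Figure D4:**
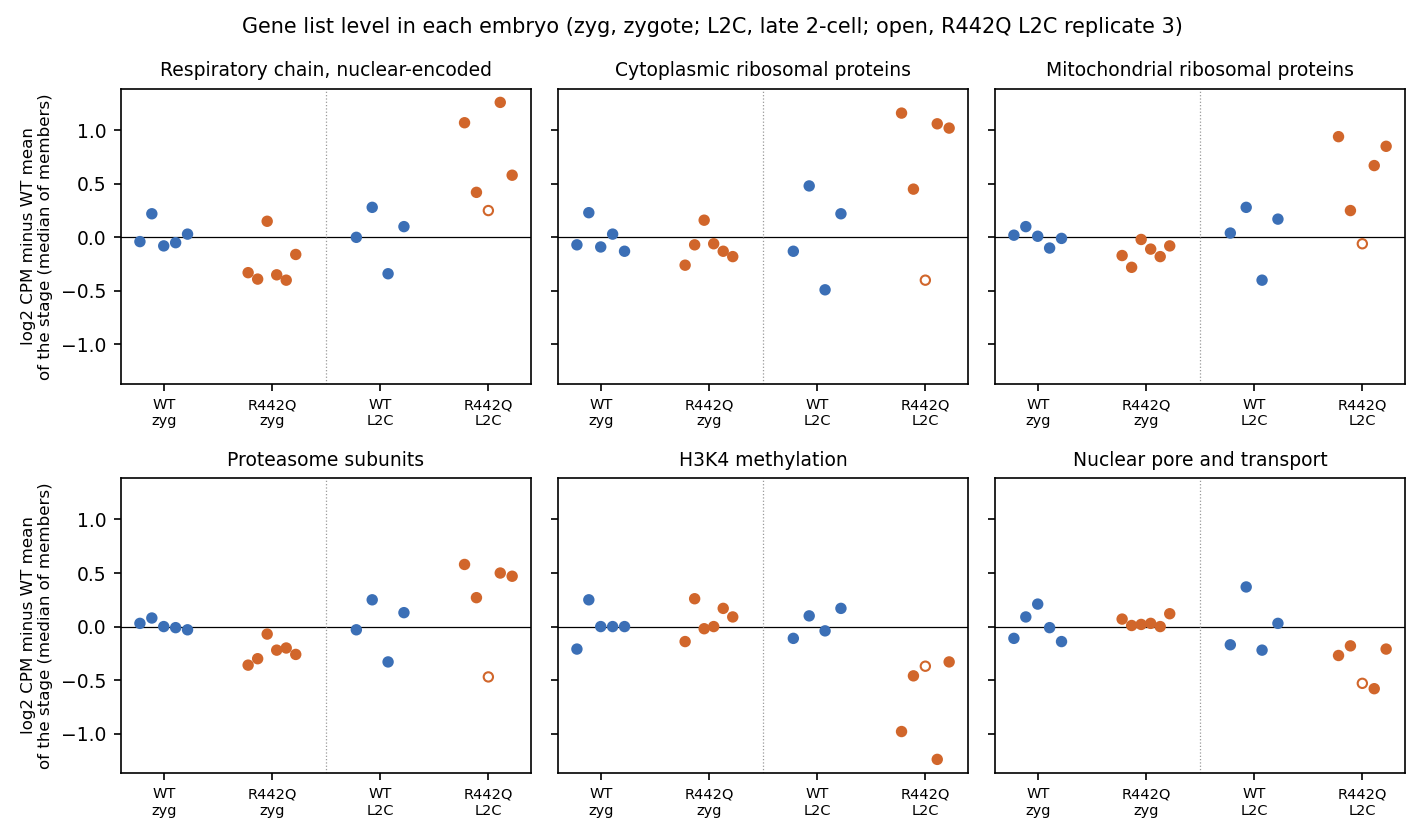
Median over the members of a list of log2 CPM minus the WT mean of the same stage, 1 point per embryo (blue, WT; orange, R442Q; open point, R442Q late 2-cell replicate 3). Respiratory chain and proteasome lists lie below 0 in 5 of 6 and 6 of 6 R442Q zygotes and above 0 in 5 of 5 and 4 of 5 R442Q late 2-cell embryos, and the H3K4 methylation list lies below every WT embryo in all 5 R442Q late 2-cell embryos.

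Embryo by embryo, the shift was not uniform. The respiratory chain list lay at -0.40 to 0.15 in R442Q zygotes and -0.08 to 0.22 in WT zygotes, and at 0.25 to 1.26 in R442Q and -0.34 to 0.28 in WT late 2-cell embryos. R442Q late 2-cell replicate 3 was the lowest of its group for this list, at 0.25, with the others at 0.42, 0.58, 1.07 and 1.26. It stood apart for cytoplasmic ribosomal proteins, at -0.40, and for proteasome subunits, at -0.47, where the other 4 lay at 0.45 to 1.16 and 0.27 to 0.58. Without it, 32 respiratory chain genes, 44 cytoplasmic ribosomal proteins, 22 mitochondrial ribosomal proteins and 17 proteasome subunits were called higher. Respiratory chain calls were 10 without WT late 2-cell replicate 4 and 27 without R442Q late 2-cell replicate 5. Cytoplasmic ribosomal protein calls were 6 without WT zygote replicate 4 or WT late 2-cell replicate 3 and 19 without replicate 2 of either late 2-cell group, mitochondrial ribosomal protein calls were 17 without R442Q late 2-cell replicate 2, and oogenesin list calls were 10 without WT late 2-cell replicate 3 and 11 without R442Q late 2-cell replicate 5.

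Transcript length and the number of genes detected moved with these lists. Genes with a longest transcript under 500 bases had a median effect of 0.22 in zygotes and 0.82 in late 2-cell embryos, and those over 4000 bases 0.08 and -0.30. Transcripts under 1000 bases took 7.39 to 12.3% of the counts in R442Q late 2-cell embryos, with replicate 3 the lowest, and 7.17 to 8.14% in WT ones. In zygotes they took 4.13 to 4.41% in R442Q and 3.57 to 4.17% in WT. R442Q late 2-cell replicates 1 and 4, the highest for the respiratory chain list, had 14987 and 15749 genes detected and replicate 3 had 20432, against 17753 to 19599 in WT late 2-cell embryos. With the number of genes detected as a covariate, 1109 genes were called, 306 higher and 803 lower, and Ndufa2, Rps29 and Rpl10 were no longer called, with interactions of 1.32, 1.55 and 1.07. Nlrp4b, Nlrp9b and Ube2n also lost their calls, at 1.2, 0.68 and 0.53. Nlrp9c, Zp1, Zp2 and Kdm5b lost theirs at values close to those without the covariate, 0.81, 1.23, 1.04 and -1.79. The median longest transcript was 1005 bases for respiratory chain genes and 1094 bases for cytoplasmic ribosomal proteins.

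With each library's trend on length and GC content removed, 1140 genes were called, 281 higher and 859 lower. The respiratory chain then had 4 members called, none of them among the 4 described above (Ndufc2, Cox7b, Uqcrc2 and Ndufa2, adjusted p = 0.0862, 0.476, 0.143 and 0.163), and its median was -0.29 in zygotes and 0.02 in late 2-cell embryos. Cytoplasmic ribosomal proteins had 0 called higher and 2 lower (medians -0.11 and 0.10), mitochondrial ribosomal proteins 4 higher (-0.21 and 0.19), proteasome subunits 2 higher (-0.22 and -0.20) and oogenesins 1 higher (-0.15 and 0.01). Psma1 and Psmc6 were not among the 2, with interactions of 0.26 and 0.54 (adjusted p = 0.589 and 0.334). Rps29, Rpl10, Zp2 and Nlrp9c also lost their calls, at 1.09, 0.26, 0.62 and 0.42. Nlrp4b, Nlrp9b, Hist1h2ba and Ube2n lost theirs at 1.29, 1.56, 2.42 and 0.88, and Wdr5, Atf7ip, Lin28a and Ckap2 at -0.90, -0.80, -1.27 and 0.89, while Mrps22, Mrpl16 and Oas1e kept theirs (1.90, 1.09 and 1.14). The zygote side of these lists was thus nearly the same with and without the trend, while the late 2-cell side was smaller, and for the proteasome below 0. The part of length in these lists was otherwise not tested.

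**Figure D5:**
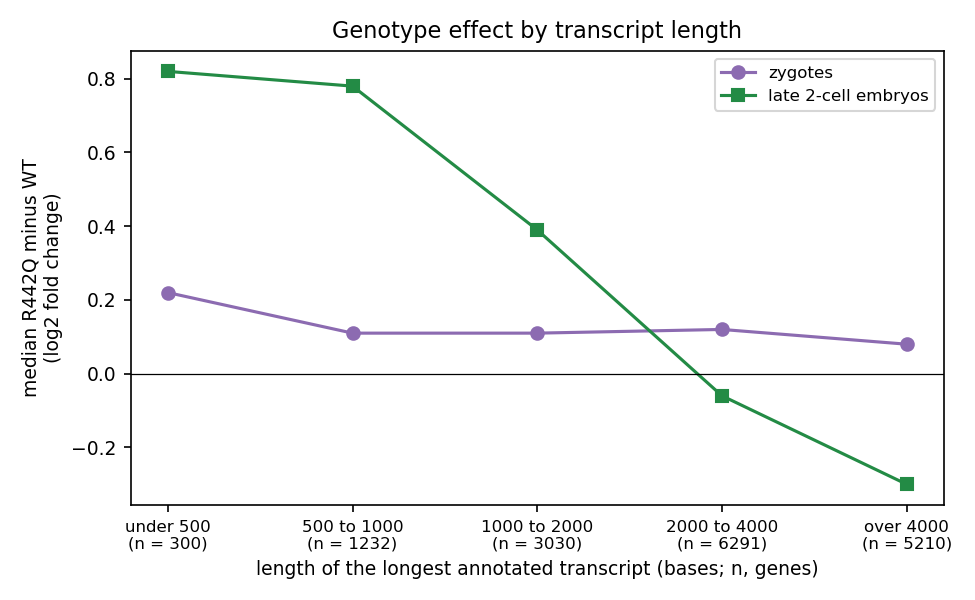
Median genotype effect (R442Q minus WT, log2 fold change) of all tested genes with a known length, by the length of the longest annotated transcript, in zygotes (circles) and late 2-cell embryos (squares). The late 2-cell median goes from 0.82 under 500 bases to -0.30 over 4000 bases, and the zygote median stays between 0.08 and 0.22.

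At the other end, the H3K4 methylation list, whose enzymes mark active promoters and enhancers, was level in zygotes and low in R442Q late 2-cell embryos. Its 23 tested members had a median effect of 0.09 in zygotes and -0.84 in late 2-cell embryos, with 0 called higher and 5 lower (21.7%, against 7.05% of all genes). On log2(FPKM + 1) the late 2-cell median was -0.29 and the median interaction -0.04, against -0.84 from counts, with 4 called lower and 1 higher. Kmt2d, an H3K4 methyltransferase of enhancers, was 305, 394, 395, 298 and 282 CPM in WT zygotes and 325, 398 and 519 CPM (lowest, median and highest) in R442Q zygotes. It was 305, 287, 402 and 373 CPM in WT late 2-cell embryos and 32.4, 69.5, 38.9, 56.9 and 40.9 CPM in R442Q ones. The zygotes overlapped and the late 2-cell embryos were far apart, at 0.140 of the WT mean (effects 0.26 ± 0.20 and -2.84 ± 0.23, interaction -3.10 ± 0.30, adjusted p = 1.16e-06).

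Men1, a scaffold of the Kmt2a and Kmt2b complexes, was 7.16 to 22.9 CPM in WT and 0.886 to 3.28 CPM in R442Q late 2-cell embryos, after 8.74 and 8.93 CPM on average in zygotes (interaction -3.15 ± 0.64, adjusted p = 0.00323). Kdm5b, an H3K4 demethylase, stood at 16.4 and 26.5 CPM in zygotes and at 407.2 and 180.7 CPM in late 2-cell embryos (interaction -1.87, adjusted p = 0.0176). Wdr5, a core subunit of all these methyltransferase complexes, had 0.480 of the WT mean in late 2-cell embryos (interaction -1.21, adjusted p = 0.0161). Wdr5 lost its call in 11 of 32 alternatives, 10 of them fits without 1 library (adjusted p up to 0.105, without WT late 2-cell replicate 2), and Kdm5b lost its call without that library (adjusted p = 0.0909). The list thus held both enzymes that add the mark and one that removes it. With the length and GC trend removed 3 members were called lower and 1 higher, and without 1 library 2 to 5 were called lower. The number was 2 without WT late 2-cell replicate 2, and 3 without WT zygote replicate 2, R442Q zygote replicates 1, 4, 5 or 6, or R442Q late 2-cell replicate 2.

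H3K9 methylation and heterochromatin genes, which mark and hold silent chromatin, had medians of -0.09 and -0.50 over 23 members, with 2 called lower (8.70%, against 7.05% of all genes). These were Atf7ip, a partner of the methyltransferase SETDB1 (interaction -1.18, adjusted p = 0.0481), and Lin28a, an RNA-binding protein on the list for its part in silencing 2-cell genes (interaction -1.64, adjusted p = 0.0111). Atf7ip lost its call in 25 of 32 alternatives, and 1 member was called lower in the fits without 1 library other than those without WT zygote replicate 3 or R442Q late 2-cell replicate 1, which called 2. Nuclear pore and transport genes had medians of 0.03 and -0.28 over 55 members, with 10 called lower (18.2%, against 7.05% of all genes) and 1 higher (1.82%, against 3.07%). On log2(FPKM + 1) the counts were 5 lower and 4 higher, with a median interaction of -0.06. Without 1 library, 9 to 10 were called lower and 1 to 4 higher. The higher count was 4 without R442Q late 2-cell replicate 3 and 3 without replicate 2 of that group. Ipo5 and Ipo4, importins that carry histones and ribosomal proteins into the nucleus, were called lower. Ipo5 had means of 52.6 and 71.2 CPM in WT and R442Q zygotes and of 247.9 and 89.8 CPM in late 2-cell embryos (interaction -1.90 ± 0.31, adjusted p = 0.00049). Ipo4 had 1.77 and 0.146 times the WT mean (interaction -3.60, adjusted p = 0.00049), and 51.6% of its stretches lie in the overlapping gene Gm49378. On log2(FPKM + 1) and log2(FPKM + 0.1) the interaction of Ipo4 was -1.31 and -1.40 and did not pass (adjusted p = 0.134 and 0.169).

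Nucleolar ribosome assembly genes, splicing factors, and RNA polymerase II with its general factors and Mediator held called members in both directions. Of 100 nucleolar genes 4 were called higher and 17 lower (4% and 17%), of 110 splicing factors 7 and 16 (6.36% and 14.5%), and of 112 polymerase and Mediator genes 8 and 13 (7.14% and 11.6%), against 3.07% and 7.05% of all genes. Without R442Q late 2-cell replicate 3 these counts were 13 and 14, 22 and 13, and 24 and 15. The lower calls were 8, 7 and 7 without WT zygote replicate 2, and over all fits without 1 library they were 8 to 18, 7 to 13 and 7 to 15. The median interactions of -0.07, 0.00 and 0.14 became 0.09, 0.16 and 0.31 with median-ratio size factors, so no direction is given for these lists.

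Rrs1 and Pes1 led the nucleolar list. Pes1, needed to mature the large ribosomal subunit, was 59.3 to 88.0 CPM in WT and 63.7 to 88.0 CPM in R442Q zygotes. It was 63.9, 158, 31.5 and 80.4 CPM in WT late 2-cell embryos and 12.6, 10.9, 12.2, 4.92 and 16.9 CPM in R442Q ones (interaction -2.97 ± 0.46, adjusted p = 0.000398). Rrs1, another assembly factor of that subunit, had 2.29 times the WT mean in zygotes and 0.154 of it in late 2-cell embryos (interaction -3.90, adjusted p = 0.000269). Hnrnpf, a splicing regulator, was 271 to 370 CPM in WT zygotes and 392 to 478 CPM in R442Q zygotes, and 382 to 581 CPM and 146 to 182 CPM in late 2-cell embryos (interaction -1.94 ± 0.23, adjusted p = 2.08e-05).

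Hnrnpf did not overlap between genotypes at either stage, although its zygote effect of 0.43 did not pass (adjusted p = 0.197), and 36.8% of its stretches lie in other genes. Gtf2a1, a subunit of TFIIA, had the same form, with 336 to 483 CPM in WT and 562 to 694 CPM in R442Q zygotes, and 677 to 910 CPM and 204 to 497 CPM in late 2-cell embryos (interaction -1.81 ± 0.28, adjusted p = 0.000398). Srsf4, a splicing factor of the SR family, and Supt5, an elongation factor, had interactions of -2.81 and -2.62 (adjusted p = 0.000398 and 0.000746). In late 2-cell embryos these 2 genes stood at 0.194 and 0.218 of the WT mean.

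The p53 list, a stress transcription factor and genes it switches on, had a median of 0.43 in zygotes and -0.01 in late 2-cell embryos over 29 members, with 3 called lower (10.3%, against 7.05% of all genes) and 1 higher (3.45%, against 3.07%), shares near those of all genes. Mdm2, the ligase that degrades p53, was 155, 137, 145, 174 and 160 CPM in WT zygotes and 166, 210 and 247 CPM (lowest, median and highest) in R442Q zygotes. It was 172, 199, 170 and 207 CPM in WT late 2-cell embryos and 93.4, 91.3, 75.3, 63.7 and 105 CPM in R442Q ones. The zygote effect of 0.43 did not pass (adjusted p = 0.249), and the late 2-cell effect was -1.13 ± 0.18 (interaction -1.55 ± 0.25, adjusted p = 0.000467). Sesn2, a stress-induced inhibitor of mTORC1, was 212 to 300 CPM in WT and 4.43 to 61.7 CPM in R442Q late 2-cell embryos (interaction -3.10, adjusted p = 0.00328). Apaf1, the core of the apoptosome, had 2.34 times the WT mean in zygotes and 0.536 of it in late 2-cell embryos, neither past the test (interaction -2.12, adjusted p = 0.00724). Ckap2, a spindle protein, was the member called higher (interaction 1.33, adjusted p = 0.00812).

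The transient 2-cell genes had the lowest median interactions among the lists with at least 6 tested members, with medians above 0 at both stages. The 7 tested Zscan4 genes had a median effect of 4.02 in zygotes and 1.82 in late 2-cell embryos, all above 0 at both stages, with 5 that rose in R442Q zygotes, against 1.22% of all genes, and no called interaction. None of the 7 passed the test in late 2-cell embryos. There the list lay at -1.72 to 1.35 in WT and 0.3 to 2.94 in R442Q embryos, relative to the WT mean. The list of Eif1a-like and Tcstv genes also holds genes outside those families, Spz1 and B020004J07Rik among them. Its 29 tested members had medians of 3.11 and 1.33. Of the 29, 12 rose in zygotes (against 1.22% of all genes) and 3 rose in late 2-cell embryos (against 5.83%). Interactions were called lower for 2 (6.90%, against 7.05% of all genes) and higher for 1 (3.45%, against 3.07%). Over the fits without 1 library, 1 to 5 were called higher and 0 to 2 lower, with 2 lower only without R442Q zygote replicates 3 or 6. Without WT late 2-cell replicate 1, 5 were called higher and 1 lower. The higher count was 3 without R442Q late 2-cell replicate 5, and 2 without R442Q zygote replicate 3 or R442Q late 2-cell replicates 1 or 3. Without R442Q zygote replicate 2, 0 were called lower. B020004J07Rik was 0.239 to 0.563 CPM in WT zygotes and 1.24 to 22.8 CPM in R442Q zygotes, and 46.5 to 133 CPM and 94.1 to 300 CPM in late 2-cell embryos (interaction -2.84, adjusted p = 0.0453), and it lost its call in 24 of 32 alternatives. Spz1 had an interaction of -3.78 (adjusted p = 0.0238) at zygote levels of 0 to 4.95 CPM. That call was lost without R442Q zygote replicate 2 (adjusted p = 0.0573), with genes detected as a covariate (0.108) and on log2(FPKM + 1), where the interaction of Spz1 was -0.70 (0.427). The 11 Tdpoz genes had medians of 1.62 and 0.51, and 1 was called lower (9.09%, against 7.05% of all genes), Gm10696 (interaction -3.51, adjusted p = 0.0371), which lost its call in 18 of 32 alternatives.

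R442Q zygote replicate 2 was the highest of its group for these 3 lists, at 5.73, 4.15 and 3.25 above the WT mean on the log2 scale. Without it the median interaction was -0.88 for the Zscan4 family and 0.07 for the Tdpoz family, whose zygote median was then 0.65 with 0 members called lower and 1 higher. Without WT late 2-cell replicate 1 it was 0.26 for the Eif1a-like and Tcstv list. On log2(FPKM + 1) the 3 medians were 0.39, 0.46 and 0.26, above 0 where the medians from counts were below 0. Members of these lists that share sequence have uncertain counts. Other genes hold 42.9% of the stretches of Gm10696 and 13.4% of those of B020004J07Rik, but 0% of those of Spz1.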

How the data were processed

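Single embryos were measured by RNA sequencing (SMART-seq2, Tn5 fragmentation, Nextera libraries, HiSeq X-10, per the labels' protocols). The authors deposited, for each stage, estimated counts per gene symbol, made by assigning reads to genes, and FPKM values, which scale them by transcript length and library size. The submitters' processing notes name RSEM and mm10. Of the deposited counts, zeros included, 90.7% in zygotes and 89.9% in late 2-cell embryos were exactly whole numbers, with no tolerance, and all were rounded. The aligner, annotation and strand setting are not given in the sources used here. The zygote and late 2-cell tables were joined by symbol. In R 4.3.3, edgeR 4.0.16 kept genes by filterByExpr (minimum count 10), scaled by TMM and fitted a quasi-likelihood model of 4 groups, with Benjamini-Hochberg adjustment over all tested genes and a threshold of 0.05. Log2 CPM used a prior count of 2. Alternatives used DESeq2 1.42.0, limma 3.58.1 and other scalings, filters and units. Scripts were tested on simulated data. Positions and lengths are from GENCODE M21 (GRCm38), which held 98.6% of the 49686 symbols, and promoters from RefSeq (GRCm38.p6).

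Groups and replicate numbers were taken from the sample titles. The members and lists were chosen with earlier results of these data known. Lists were counted and not tested. Genes named were Chek1, up to 8 crossover genes per direction with 5 CPM at both stages and no overlap, and up to 4 called members of each described list in order of p (2 for the 7 added lists). The 21 other crossover genes and the list scores were described after their values were seen. The title numbers gave no sign of pairing, since 1 of 9 same-numbered pairs had correlated deviations above 0.1 (-0.125 to 0.19). The deposited columns number some embryos differently from the titles, and pairing by those numbers was not tested. The floor of 3 counts reflects counting error alone, as PCR copies could not be told from separate molecules. Libraries held 5727956 to 11296522 counts. Blastocysts were not analysed here, and 2 genes that the naming rule chose are not reported here.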

Additional observations from a re-analysis of the deposited data

Results flagged for a closer look

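In 13 of 216 groups of 4 to 6 embryos of the named genes, 1 embryo stood far from the rest of its group by Dixon's test, which chance alone does in about 1 in 20 groups. Among R442Q late 2-cell embryos, Sesn2 was 4.43 CPM in replicate 4 (31.7 to 61.7 CPM in the others) and Nlrp4b 56 CPM in replicate 1 (13.4 to 18.5). Among WT late 2-cell embryos, replicate 3 had 43.5 CPM of Psmc6 (56.3 to 57.3 in the others) and 173 CPM of Nlrp9c (105 to 110), and replicate 4 had 63.8 CPM of Ube2t (79.6 to 82.2) and 659 CPM of Chek1 (388 to 412). Among R442Q zygotes, replicate 1 had 1280 CPM of Oosp1 (1700 to 1880) and 13.5 CPM of Kdm5b (24.5 to 32.3). Wdr5 was 233 CPM in R442Q zygote replicate 2 (325 to 396), Obox2 796 CPM in replicate 4 (at most 503) and Lin28a 28.6 CPM in replicate 6 (52.3 to 60.1). Among WT zygotes, Gtf2a1 was 336 CPM in replicate 5 (at most 483) and Zp1 50.8 CPM in replicate 3 (67.9 to 75.8).

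Apart from Chek1, genes were named only where their interaction was called. By that rule the genotype effect differed between the stages, by the interaction test, for 53 of the 54 named genes. The interaction on the log2 scale was above 0 for 28 of them. The larger ones were Hist1h2ba 2.90, Hist1h3f 2.70, Ndufc2 2.62, Elobl 2.59, Lsm10 2.35, Obox2 2.15, Rps29 2.10, Cox7b 1.94, Ndufa2 1.82, Ube2t 1.80, Nlrp9b 1.78, Nlrp14 1.75 and Mrps22 1.70. The smaller ones were Nlrp4b 1.64, Oas1e 1.61, Oosp2 1.57, Uqcrc2 1.55, Oosp1 1.55, Psmc6 1.52, Oosp3 1.47, Psma1 1.43, Rpl10 1.40, Zp1 1.38, Ckap2 1.33, Mrpl16 1.31, Ube2n 1.10, Zp2 1.01 and Nlrp9c 0.84. It was below 0 for 25. The larger of these were Rrs1 -3.90, Spz1 -3.78, Ipo4 -3.60, Gm10696 -3.51, Tbx3 -3.31, Men1 -3.15, Pdp2 -3.11, Sesn2 -3.10, Kmt2d -3.10, Pes1 -2.97, B020004J07Rik -2.84 and Srsf4 -2.81. The smaller were Supt5 -2.62, Ube2g2 -2.49, Apaf1 -2.12, Hnrnpf -1.94, Ipo5 -1.90, Kdm5b -1.87, Gtf2a1 -1.81, Lin28a -1.64, Mdm2 -1.55, Eif4g2 -1.49, Wdr5 -1.21 and Atf7ip -1.18. For Hist1h2ac it was -5.82, a fitted value that depends on the prior count because the gene was at 0 in all R442Q late 2-cell embryos.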

How the results depend on the processing

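Of the 53 named genes with a called interaction, 24 kept it in every alternative run and 29 lost it in at least 1, and with the length and GC trend removed 31 kept it, 21 lost it and Oosp3 reversed (-0.18). Fits without 1 library gave 1089 to 2311 interaction genes, 9 to 44 crossover genes, 135 to 302 zygote genes and 1799 to 3203 late 2-cell genes. DESeq2 gave 85 crossover and 661 zygote genes, limma voom with a variance per group 121 crossover, 1721 zygote and 1206 late 2-cell genes, each stage alone 54, 1600 and 519, and the removed trend 16 crossover and 1428 late 2-cell genes. With a replicate block, where same-numbered embryos are treated as paired, there were 1085 interaction, 14 crossover and 172 zygote genes, and 11 of the 29 crossover genes were kept. The title numbers used for the block gave no sign of pairing, and the numbers of the deposited columns were not tried. The causes of these moves were not tested.

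On log2(FPKM + 1) the median interaction was 0.39 for the Zscan4, 0.26 for the Eif1a-like and Tcstv, 0.46 for the Tdpoz, -0.04 for the H3K4, -0.21 for the p53, -0.31 for the H3K9, -0.06 for the nuclear pore, 0.22 for the splicing, 0.54 for the ubiquitin-conjugating and 0.83 for the histone list. With the length and GC trend removed it was -1.77 for Tdpoz, -0.59 for H3K4, -0.32 for H3K9, -0.28 for splicing, -0.07 for polymerase II, 0.33 for mitochondrial and 0.21 for cytoplasmic ribosomal proteins, 0.11 for the proteasome, 0.36 for ubiquitin-conjugating enzymes, 0.42 for NLRP genes, 0.39 for the respiratory chain, 0.62 for the zona, 0.02 for oogenesins and 0.86 for histones. At 5 CPM at both stages it was -3.44 for Tdpoz (1 gene, Gm10696), -0.33 for H3K9, 0.30 for polymerase II, 0.47 for ubiquitin-conjugating enzymes and 1.02 for histones, and with RLE size factors -0.59 for H3K9, 0.31 for polymerase II and 0.92 for ubiquitin-conjugating enzymes.

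Without 1 library the list medians ranged over -2.63 to -0.88 (Zscan4 family), -1.58 to 0.26 (Eif1a-like and Tcstv), -1.94 to 0.07 (Tdpoz family), -0.89 to -0.56 (H3K4), -0.88 to -0.40 (p53), -0.75 to -0.41 (H3K9), -0.34 to -0.15 (nuclear pore and transport), -0.19 to 0.18 (nucleolar ribosome assembly), 0.01 to 0.28 (splicing factors), 0.14 to 0.40 (polymerase II). The higher lists ranged over 0.56 to 0.88 (mitochondrial ribosomal proteins), 0.60 to 0.94 (proteasome subunits), 0.72 to 1.12 (cytoplasmic ribosomal proteins), 0.50 to 0.98 (ubiquitin-conjugating enzymes), 0.55 to 1.17 (oocyte NLRP genes), 0.89 to 1.18 (respiratory chain), 0.93 to 1.5 (zona pellucida and egg surface), 0.88 to 1.44 (oogenesins), 1.14 to 1.57 (replication-dependent histones). The Chek1 difference in late 2-cell embryos was 0.16 on log2(FPKM + 1), and -0.26 to 0.08 without 1 library, above 0 without WT replicate 4 (0.08) or R442Q replicates 1 (0.06) or 4 (0.02). In zygotes it was 0.18 to 0.41, with an exact permutation p of 0.0381 without WT replicate 3. The interaction of Chek1 was 0.03 on log2(FPKM + 1) and on log2(FPKM + 0.1). Depth limits genes under about 5 CPM, and 9 of the 40 tested histones reached that level at both stages.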
